A study of Mus musculus with 21 samples.

Results

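The muscle of untrained mice was described from 7 libraries of gastrocnemius RNA, chosen because their labels place them in the Inactive group (inactive for 6 weeks), out of 21 libraries in the series. Each library came from a female C57BL/6NJ mouse that was 10 weeks of age when the groups were formed and was kept in standard cages with standard enrichment and no treadmill training. These mice were not naive to running, because the mice of every group ran graded maximal tests on a treadmill, the last of them a few days before the tissue was taken. Tissue was collected in the light phase after a fast of several hours, and the whole medial belly of the muscle was homogenised, so fibers and all other cells of that belly contributed to the poly(A)-selected RNA. The libraries of the trained and the activity reduction mice were not used, and no comparison between groups was made.

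The 3 genes taken as markers of the tissue were high in every library. Levels are given as CPM, the counted reads of a gene scaled to a library total of 1000000. Those of Myh4, the myosin heavy chain of the fastest fibers (GRCm39 chromosome 11, 67128336 to 67151274), lay between 68151 and 81429.8, with a median of 75684. Acta1, skeletal muscle actin (chromosome 8, 124618501 to 124623661), lay between 23031 and 26497 CPM, with a median of 24817. Ckm, muscle creatine kinase (chromosome 7, 19138701 to 19157965), lay between 12387 and 13671 CPM, with a median of 12969. The label of skeletal muscle thus held by these markers in all 7 libraries.

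The gastrocnemius of the mouse calf is a mixed muscle in which fast fibers prevail. Fibers are classed by their myosin heavy chain, from slow oxidative type I fibers with Myh7 through types IIA with Myh2 and IIX with Myh1 to fast glycolytic type IIB fibers with Myh4, and most other contractile proteins also come in a fast and a slow form from separate genes. Between the fibers lie capillaries, nerve, connective tissue, satellite cells and immune cells. In a bulk sample fewer cells of a type and less RNA per cell cannot be told apart.

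The libraries held 49284630 to 59785132 counted reads (median 53278181). Of 40853 genes in the table, 11517 (28.2%) reached 1 CPM in all 7 libraries and 13211 in at least 1, while 14912 had no read in any. Replicate 1 stood apart by transcripts of liver genes and replicate 7 by transcripts of myelin genes and of other genes that include Fkbp5 and Foxo1, as described below. Some results that rest on either library, but not all, are also given without it.

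A small number of genes took most of the reads. The top gene alone held 6.82% to 8.14% of the reads of a library, the top 25 genes 38.7% to 40.4% and the top 100 genes 53.1% to 54.5%. Between 62 and 71 genes were enough for 50% of the reads, whereas 3132 to 3378 genes were needed for 90%. The mean was at least 1000 CPM in 89 genes, at least 100 CPM in 1162 and at least 10 CPM in 7095. Nuclear protein-coding genes held 89.7% ± 0.281 (SD, n = 7) of the reads, mitochondrially encoded genes 8.78% ± 0.217 and nuclear long noncoding RNAs 0.735% ± 0.05002. The mitochondrial share is one of counted reads only. COX2, COX3, ATP6, ND4L, ND3 and ATP8, which have a full or nearly full nuclear copy, were counted at means of 1.28 to 42.1 CPM, as described below.

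By share of reads, the leading transcripts were those of contraction, calcium handling, glycolysis and the mitochondrial genome. Myh4 took the most reads in every library, with 79639, 75684, 77034, 68151, 74674, 74414 and 81429.8 CPM in replicates 1 to 7 (mean 75861 ± 4275, SD, n = 7 here and below). Replicate 4 was the lowest and replicate 7 the highest, and the highest was 1.20 times the lowest. Atp2a1, the calcium pump of the fast sarcoplasmic reticulum, followed with 45253 ± 1297 CPM and a highest library that was 1.08 times the lowest. COX1, the mitochondrially encoded core subunit of cytochrome c oxidase, had 31454 ± 826.5 CPM and Acta1 25164 ± 1342 CPM. The next by read share were Tnnt3 (fast troponin T, 18898.5 ± 659 CPM), Aldoa (aldolase of glycolysis, 16361.5 ± 479 CPM), Ttn (titin, the spring of the sarcomere, 15817 ± 665 CPM), Tpm1 (tropomyosin, 14900.2 ± 857 CPM), CYTB (mitochondrial cytochrome b, 14857 ± 304.6 CPM) and Actn3 (the fast actinin of the Z-disc, 13324 ± 868.5 CPM). Ckm, Tnnc2, ND1, Pygm, Mybpc2, ND5, ND2, Gapdh, Ryr1, Neb, Pvalb, Myl1, Tnni2, Eno3 and ND4 completed the first 25 by read share, from 13033 ± 409.8 CPM for Ckm to 5614 ± 182 CPM for ND4. The coefficient of variation (CV, SD as a percentage of the mean) among the 25 ran from 2.05% for CYTB to 8.34% for Pvalb, the calcium buffer of fast fibers.

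**Figure D1:**
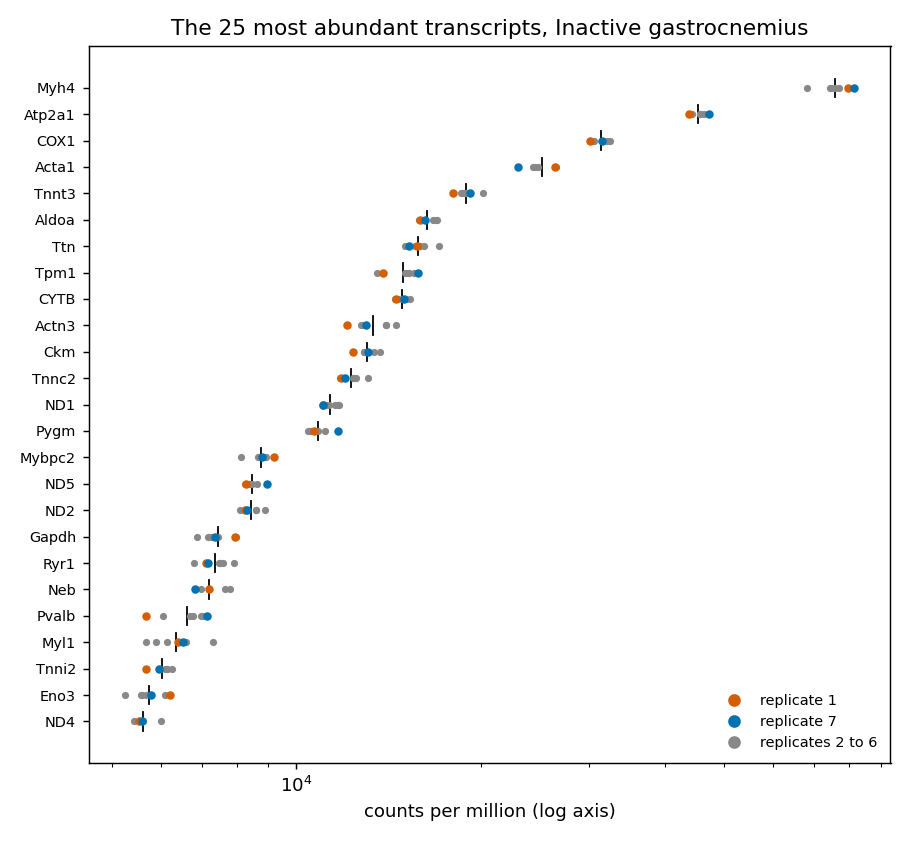
CPM (log axis) of the 25 genes with the highest mean in the 7 Inactive libraries, with 1 point per library and the mean. The points of a gene lie close together, and Myh4 leads at 68151 to 81429.8 CPM.

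Because long transcripts collect more reads, levels of different genes were compared per length, as length-scaled levels (TPM, reads per base of transcript brought to the same total in each library), from the length of all annotated exons of a gene or, alternatively, from its canonical transcript. Per length of all exons, COX1 was the highest with 82799 ± 1698 TPM, followed by Tnnc2, fast troponin C, with 55707 ± 1722 TPM, CYTB with 52820.5 ± 842 TPM, ND1 with 48279 ± 1036 TPM and Myh4 with 46571 ± 2821 TPM. Per canonical length the first 5 were COX1 with 50547 ± 1109 TPM, Tnnc2 with 40566 ± 1292 TPM, Acta1 with 37912 ± 1984 TPM, CYTB with 32246 ± 558 TPM and Myh4 with 31645 ± 1940 TPM. Myh4 was thus rank 1 by reads and rank 5 on both length scales. Ttn, with 117522 bases of exons, was rank 7 by reads but rank 116 per length of all exons and rank 246 per canonical length. Tcap, a small protein that caps titin at the Z-disc, took the opposite course, from rank 42 by reads to rank 18 per length of all exons. Acta1 depended on the length used, with rank 7 per length of all exons and rank 3 per canonical length, since its exons span 3715 bases in all and 1648 in the canonical transcript.

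The promoters of the 3 marker genes are shown because they drive some of the most abundant transcripts of the muscle. The 250 bases upstream of the RefSeq start (GRCm38.p6) lie at chr8:123894776-123895025 on the minus strand for Acta1, at chr7:19410844-19411093 on the plus strand for Ckm and at chr11:67237562-67237811 on the plus strand for Myh4. Capitals mark matches to TATAAA, to the E-box CANNTG that MyoD-family factors recognise, to the CArG box of serum response factor and to the MEF2 motif, each searched on both strands.
Acta1: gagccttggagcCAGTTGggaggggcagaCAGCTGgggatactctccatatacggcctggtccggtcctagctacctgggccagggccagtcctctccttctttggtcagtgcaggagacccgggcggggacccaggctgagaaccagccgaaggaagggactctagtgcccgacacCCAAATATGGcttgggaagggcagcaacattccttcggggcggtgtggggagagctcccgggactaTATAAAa
Ckm: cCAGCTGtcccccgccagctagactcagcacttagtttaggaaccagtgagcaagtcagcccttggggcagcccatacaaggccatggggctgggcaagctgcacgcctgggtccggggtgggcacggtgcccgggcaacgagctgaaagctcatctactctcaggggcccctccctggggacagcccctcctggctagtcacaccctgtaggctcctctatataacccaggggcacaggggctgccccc
Myh4: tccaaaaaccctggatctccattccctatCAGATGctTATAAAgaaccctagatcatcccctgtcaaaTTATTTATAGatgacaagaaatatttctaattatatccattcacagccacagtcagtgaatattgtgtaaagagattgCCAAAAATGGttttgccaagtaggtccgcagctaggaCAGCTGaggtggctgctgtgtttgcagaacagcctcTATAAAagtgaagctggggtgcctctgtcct
The Acta1 window held a CArG box at -73 to -64 from the start, 2 E-boxes and a TATAAA at -7 to -2. The Myh4 window held a CArG box at -104 to -95, 2 E-boxes, a MEF2 motif at -182 to -173 and 3 matches to TATAAA, of which that at -179 to -174 lies inside the MEF2 motif. The Ckm window held 1 E-box and no exact match to TATAAA, the CArG box or the MEF2 motif. Of the 100 nuclear genes with the most reads, 72 matched a RefSeq promoter by symbol. A CArG box was found in 6.94% of these promoters and in 1.40% of all 27025 promoters, a MEF2 motif in 12.5% and 3.01%, an E-box in 69.4% and 66.0%, and TATAAA in 15.3% and 13.0%. These are exact matches of letters, with no measure of binding. Variants such as other TATA-like sequences were not searched, and positions depend on the annotated start.

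Myh4 held most of the RNA of the adult myosin heavy chains. Per length of all exons it made up 92.8%, 93.5%, 91.9%, 91.2%, 92.4%, 92.2% and 93.8% of the sum of Myh4, Myh1, Myh2 and Myh7 in replicates 1 to 7 (mean 92.5% ± 0.893). Myh1 made up 3.93% ± 0.733, Myh2 3.07% ± 0.382 and Myh7, the slow form, 0.462% ± 0.0545. Replicate 2 differed in the order of the minor forms, since there Myh1 was 2.79% and Myh2 3.26%, while Myh1 was above Myh2 in the other 6 libraries. With the longest transcript as the length, Myh1 was also below Myh2 in replicate 7, at 3.12% and 3.22%. Myh1 also varied most among the 4, with 4833, 3035, 5026, 4546, 4610, 4706 and 3447 CPM in replicates 1 to 7. Replicates 2 and 7 were lower than the other 5. Per canonical length the shares were 91.7% for Myh4, 4.13% for Myh1, 3.46% for Myh2 and 0.670% for Myh7.

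**Figure D2:**
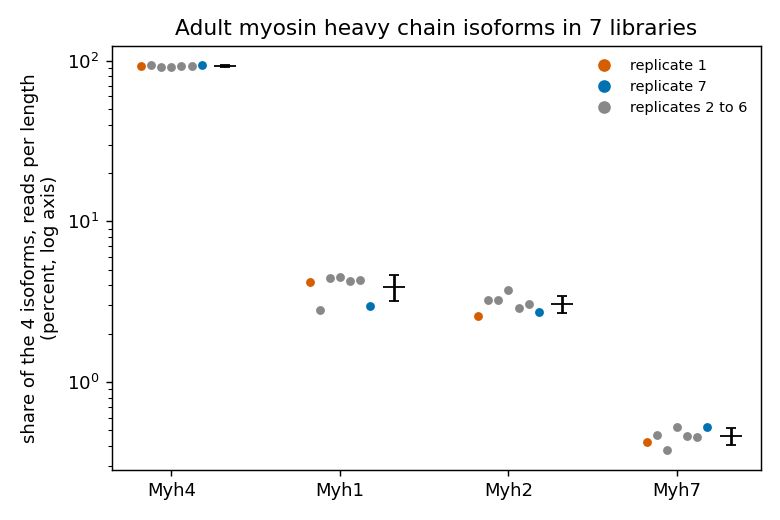
Share (percent, log axis) of each of 4 adult myosin heavy chain genes in their sum, from reads per length of all exons, with 1 point per library in the order of replicates 1 to 7 and the mean ± SD. Myh4 lies between 91.2% and 93.8%, and Myh1 is lowest in replicates 2 and 7.

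Developmental and specialised myosins were far lower by reads. Myh8, the perinatal form, had 29.8 ± 1.97 CPM, Myh3, the embryonic form, 7.99 ± 0.782 CPM and Myh13, the extraocular form, 6.72 ± 1.20 CPM. Myh7b had 18.4 ± 2.58 CPM, Myh6, the atrial form, 3.71 ± 0.605 CPM and Myh15 at most 0.112 CPM. A stretch of 9.62% of the canonical Myh7 transcript matched Myh6 at an identity of at least 98%, so reads of that stretch could belong to either. No such stretch was found for Myh4, Myh1 or Myh2.

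The genes of proteins that work with myosin mostly showed the same fast profile. The 12 listed genes of fast fibers summed to 122396 ± 2662 CPM and the 12 of slow fibers to 3230 ± 158 CPM, and all 24 were detected in all 7 libraries. Of the fast genes, 11 had a mean of at least 10 CPM. The exception, the fast light chain Mylpf, was counted at a very low value, as described below. Per length of all exons, the fast form exceeded the slow form 44.7 ± 4.27 times for troponin T (Tnnt3 over Tnnt1), 122 ± 11.5 times for troponin I (Tnni2 over Tnni1) and 136 ± 13.8 times for troponin C (Tnnc2 over Tnnc1). Per canonical length these ratios were 53.1 ± 5.08, 84.9 ± 8.03 and 106 ± 10.7. For the calcium pumps the ratio of Atp2a1 over Atp2a2 was 130.3 ± 9.50 per length of all exons and 77.0 ± 5.62 per canonical length. Myosin binding protein C had the lowest ratio of these pairs, with Mybpc2 9.86 ± 0.812 times Mybpc1 per length of all exons and a library minimum of 8.82. The slow form was therefore the lower of each of these pairs in every library.

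Slow-fiber transcripts were low by CPM. Their sum had a CV of 4.88%, while the median CV of the members was 9.50%, beside 6.53% over all genes with a mean of at least 10 CPM. Mybpc1 had 1182 ± 77.1 CPM, Atp2a2 633 ± 55.1, Myl3, a slow light chain, 298 ± 19.8, Tnnt1 225 ± 22.5 and Tnnc1 112 ± 9.66 CPM. The least steady was Csrp3, a stretch-sensing LIM protein, with 20.01, 48.0, 30.7, 53.6, 32.2, 26.5 and 31.1 CPM in replicates 1 to 7. Replicate 4 was the highest, replicate 1 the lowest, and their ratio was 2.68. Csrp3 was the only slow-fiber gene with a mean of at least 10 CPM whose highest library exceeded the lowest by more than 2 times, which held for 200 (2.82%) of all 7095 genes with that mean. Myh7 and Myh2 showed no clear relation across the libraries (Pearson r = -0.227, exact permutation p = 0.650, adjusted 0.650; Spearman rho = 0.143, p = 0.783, adjusted 0.906), and without replicates 3 and 7, the libraries farthest from the median of Myh7, r was 0.887, so the value rests on those 2 libraries. The same held for Myh4 and Myh1 (Pearson r = -0.236, exact permutation p = 0.583, adjusted 0.650; Spearman rho = 0.0714, p = 0.906, adjusted 0.906), where r was 0.245 without replicates 4 and 7.

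Sarcomere genes summed to 93457 ± 2083 CPM over 24 genes, or 9.35% ± 0.208 of the reads. Per length of all exons, Acta1 exceeded Actc1, the cardiac actin, 116 ± 38.2 times, and Actc1 varied more than Acta1 did. Actc1 had 621, 291, 344, 248, 229, 518 and 399.6 CPM in replicates 1 to 7. Replicates 1 and 6 were high and replicates 4 and 5 low, and the highest was 2.72 times the lowest. No other sarcomere gene with a mean of at least 10 CPM differed by more than 2 times between libraries. Long structural proteins were well represented by reads, among them Neb (nebulin, 7207 ± 383.5 CPM), Xirp2 (3283 ± 292 CPM) and the intermediate filament Des (desmin, 2850 ± 143 CPM). Nebl, a nebulin relative of heart muscle, had 0.638 ± 0.196 CPM and was the only listed sarcomere gene that did not reach 1 CPM in all 7 libraries.

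Phosphagen, glycogen and glycolysis genes together held 7.75% to 8.08% of the reads, a narrow range, and all 23 were above 10 CPM. Pygm, muscle glycogen phosphorylase, had 10842 ± 448 CPM, Eno3, muscle enolase, 5738 ± 325.1, Pfkm, muscle phosphofructokinase, 4486 ± 218 and Ldha, the muscle subunit of lactate dehydrogenase, 3072 ± 176 CPM. Ldha exceeded the heart-type subunit Ldhb 15.5 ± 2.33 times per length of all exons. The steadiest member was Gpi1, phosphoglucose isomerase, with a CV of 1.74%. The least steady was Fbp2, the muscle fructose bisphosphatase, which lay between 54.7 and 104.5 CPM, with replicates 1 and 4 above the other 5. Pgm1, phosphoglucomutase, had 1964 CPM in replicate 1 and 1504 to 1641 CPM in the others. Copies of these genes could take some reads: 86.2% of the canonical Aldoa transcript and 88.0% of that of Gapdh matched other annotated genes at an identity of at least 98%.

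Mitochondrially encoded genes fell into 2 ranges. CYTB (14857 ± 304.6 CPM), ND1 (11360.3 ± 303.6 CPM), ND5 (8472 ± 241 CPM), ND2 (8416 ± 274.5 CPM) and ND6 (1482 ± 103 CPM), of which the ND genes encode subunits of complex I, had no match in the nuclear genome of at least 100 bases and 98% identity. COX3 (42.1 ± 3.78 CPM), COX2 (33.9 ± 2.81 CPM), ATP6 (30.2 ± 3.81 CPM), ND4L (11.97 ± 1.89 CPM) and ATP8 (1.28 ± 0.172 CPM) were covered in full by such a match, and ND3 (2.22 ± 0.355 CPM) to 99.1%. All of these matches lie in a stretch of GRCm39 chromosome 1 between 24650616 and 24655269. COX1 and ND4 were covered to 31.3% and 63.6% and had 31454 and 5614 CPM. The genes of low count were thus those with a full or nearly full nuclear copy, and the part of this copy in their counts was not tested. The mitochondrial ribosomal RNAs mt-Rnr2 and mt-Rnr1 had 4428 ± 523.5 and 1570 ± 242 CPM, with wider CVs of 11.8% and 15.4%.

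Nuclear genes of oxidative metabolism summed to 15618 ± 487 CPM over 27 genes. Atp5b and Atp5a1, the catalytic part of ATP synthase, had 2447 ± 48.3 and 1917 ± 35.6 CPM, Mb, myoglobin, 1570 ± 123 and Cs, citrate synthase, 747 ± 17.0 CPM. Cs was steady, with a CV of 2.28%. Of the 27 genes, 17 were highest in replicate 4. Among them were 7 of the 8 genes of fat use (Acadl, Acadm, Cd36, Cpt1b, Fabp3, Hadha, Hadhb and Lpl), a grouping made after the values were seen. How many of all genes were highest in replicate 4 was not counted, so these counts are a description. Fabp3, a fatty acid carrier, had 293, 350.4, 253, 384, 253, 274 and 210.5 CPM in replicates 1 to 7, and Hadhb, of beta-oxidation, 351 CPM in replicate 4 and 277 to 307.9 CPM in the others. The sum of the list was also highest in replicate 4, at 16645 CPM, with 15262 to 15799.9 CPM in the others. Ppargc1a, a coactivator of mitochondrial biogenesis, had 33.6 ± 1.66 CPM.

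Some textbook muscle genes were counted at very low values. Mylpf, the fast regulatory light chain, had 2.31 ± 0.382 CPM, Cpt1b, muscle carnitine palmitoyltransferase, 2.05 ± 0.367 CPM and Cox7a1, a muscle subunit of cytochrome c oxidase, 1.22 ± 0.284 CPM. In the GENCODE M39 annotation, other genes share 68.5% of the exon bases of Cpt1b on the same strand, and 29.4% of those of Mylpf and 16.6% of those of Cox7a1 on the opposite strand. Tnnc2 shares 68.7% on the opposite strand and yet had 12287 ± 458.5 CPM. The part of overlapping genes in the 3 low counts was not tested.

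Genes of excitation-contraction coupling summed to 16344 ± 364.5 CPM over 16 genes, with a median CV of 5.15% among the members. Ryr1, the calcium release channel, had 7361 ± 358 CPM, Cacna1s, the voltage sensor, 1793 ± 117, Trdn, triadin, 1156 ± 75.5 and Scn4a, the muscle sodium channel, 753.5 ± 15.5 CPM. Sln, sarcolipin, an inhibitor of the calcium pump, had only 3.33 ± 0.943 CPM. At the neuromuscular junction 12 of 13 genes were detected in all libraries. Ache, acetylcholinesterase, had 35.1 ± 2.87 CPM, Chrnb1, a subunit of the acetylcholine receptor, 30.6 ± 1.84, Musk, the kinase that organises the junction, 22.2 ± 3.06 and Chrne, the adult receptor subunit, 11.9 ± 1.14 CPM. Chrng, the fetal subunit that Chrne replaces, was at 0 in replicates 5 and 7 and at most at 0.167 CPM.

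The satellite cell factors Pax7 and Myf5 were detected at a few CPM, while Cdh15, a cadherin on the same list, had a mean of 23.35 CPM. Pax7, the defining factor of satellite cells, had 2.53 ± 0.194 CPM and Myf5 1.62 ± 0.453 CPM, in a range of 1.12 to 2.33 CPM. Factors that fibers also express were higher by CPM, with Mef2c at 661 ± 73.5 and Myf6 at 70.7 ± 5.46. Myod1 and Myog, the factors of differentiation, had 10.3 ± 2.29 and 4.58 ± 1.15 CPM, and Mymk, which drives fusion of myoblasts, was at 0 in replicates 1, 5 and 7 and at most at 0.347 CPM.

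Genes of vessels and stroma were found throughout. The 14 endothelial genes summed to 867 ± 64.2 CPM and all were detected in all 7 libraries. Aqp1, a water channel, held the most with 366.5 ± 43.8 CPM, and Cdh5 and Pecam1, the junction proteins of endothelium, had 58.5 ± 4.40 and 54.3 ± 4.88 CPM. Lymphatic genes summed to 14.8 ± 2.16 CPM. Pericyte and smooth muscle genes summed to 689 ± 39.8 CPM, mostly from Abcc9 (320.2 ± 6.87 CPM), a channel subunit that muscle fibers also express, and Rgs5 (259.9 ± 26.7 CPM). Acta2 and Myh11, the contractile genes of smooth muscle, had 18.1 ± 2.73 and 24.8 ± 2.90 CPM. Tagln, another of them, was counted at 0.103 ± 0.0823 CPM, and 66.7% of its exon bases lie in genes of the opposite strand.

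**Figure D3:**
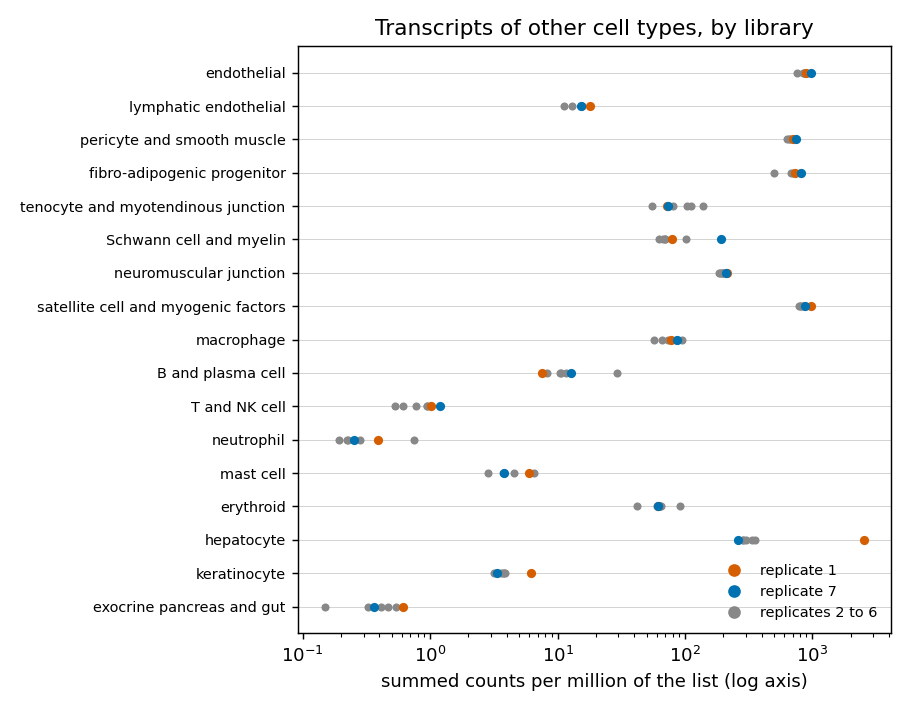
Summed CPM (log axis) of marker lists of cells other than muscle fibers, with 1 point per library. Replicate 1 stands at 2526 CPM for hepatocyte genes and replicate 7 at 193 CPM for Schwann cell and myelin genes, while the endothelial sums lie between 756 and 971 CPM.

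Fibroblast and tendon transcripts differed more between libraries than those of vessels. The 14 genes of fibro-adipogenic progenitors, the fibroblast-like cells of muscle, summed to 731, 685, 797, 812, 499, 706 and 818 CPM in replicates 1 to 7. Replicate 5 was the lowest. Col3a1, a fibrillar collagen, had 24.9 CPM in replicate 5 and 53.6 to 65.3 CPM in the others, and Col1a1 had 12.8 CPM in replicate 5 and 23.4 to 44.2 CPM in the others. Fmod, fibromodulin, a proteoglycan of tendon, had 9.11, 32.2, 27.0, 11.2, 2.52, 45.7 and 7.21 CPM in replicates 1 to 7, so that replicates 2, 3 and 6 were high and replicate 6 was 18.1 times replicate 5. Thbs4, a thrombospondin of tendon, was high in the same 3 libraries, at 19.9, 18.4 and 21.2 CPM, and lay at 6.66 to 12.6 CPM in the other 4. Fmod was among the 5 genes that stood farthest above the others in replicates 2, 3 and 6, and Thbs4 in replicates 2 and 6. Their shared pattern is therefore a description. Col22a1, a collagen of the myotendinous junction, was highest in replicate 3 at 34.4 CPM, with 24.4 to 27.5 CPM in the others. Col1a1 and Tnmd, tenomodulin of tendon, varied in the same direction without passing the correction over 6 gene pairs (Pearson r = 0.770, exact permutation p = 0.0319, adjusted 0.0958; Spearman rho = 0.857, p = 0.0238, adjusted 0.0714). Without replicates 2 and 5 r was 0.917, and without replicate 5 alone it was 0.934 with an adjusted exact permutation p of 0.0417. With any other single library left out, the adjusted exact permutation p was 0.0667 to 0.279.

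Myelin and Schwann cell genes set replicate 7 apart. Pmp22, a membrane protein of peripheral myelin, had 17.2, 25.2, 16.5, 15.1, 14.6, 16.7 and 50.1 CPM in replicates 1 to 7. Replicate 7 was the highest. Mbp, myelin basic protein, had 35.5 CPM in replicate 7 and 9.14 to 17.4 CPM in the others, and Prx, periaxin, 14.7 and 4.48 to 7.28 CPM. Over 13 genes the list summed to 193 CPM in replicate 7 and 62.6 to 102 CPM in the other 6. An exception was Gjb1, a connexin shared with liver, which was highest in replicate 1 at 11.8 CPM with 1.17 to 1.97 CPM in the others.

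Adipocyte genes were low and uneven. Adipoq, adiponectin, had 4.76, 3.70, 5.84, 1.89, 3.27, 8.71 and 11.4 CPM in replicates 1 to 7, with replicate 7 highest and replicate 4 lowest. Lep, leptin, had 5.58 CPM in replicate 7 and 0.715 to 2.25 CPM in the others, and Cidec, of lipid droplets, 11.4 and 1.68 to 4.69 CPM. The list summed to 3434 ± 279.8 CPM, of which 94.7% was Car3, a carbonic anhydrase that muscle fibers also express. Ucp1, the defining gene of brown fat, had no read in any library.

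Immune and blood transcripts were scarce. Macrophage genes summed to 77.4 ± 12.9 CPM over 14 genes, among them Lyz2, lysozyme (17.5 ± 7.94 CPM). Lyz2, Cd68, C1qa, C1qb and C1qc were each highest in replicate 2, where Lyz2 had 33.6 CPM and Cd68 4.82 CPM. T and NK cell genes summed to 0.858 ± 0.234 CPM over 10 genes and neutrophil genes to 0.331 ± 0.197 CPM over 8 genes, and none of them reached 1 CPM in all libraries. Ighm, an immunoglobulin heavy chain, had 28.7 CPM in replicate 6 and 7.04 to 12.4 CPM in the others, whereas the B cell genes Cd79a and Cd79b were at most at 0.188 and 0.234 CPM. Mast cell genes summed to 4.47 ± 1.35 CPM. Hbb-bs, a hemoglobin of red cells, had 30.3 ± 7.12 CPM and was highest in replicate 5, at 44.5 CPM.

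Liver transcripts set replicate 1 apart. Alb, albumin, had 1155, 129.6, 121, 113, 106, 136 and 93.7 CPM in replicates 1 to 7. All 24 listed hepatocyte genes were highest in replicate 1, at 5.09 to 10.3 times the median of the other 6 libraries (median 7.55). They summed to 2526 CPM in replicate 1 and 262 to 356 CPM in the others, so their sum was 621.5 ± 840.5 CPM with replicate 1 and had an SD of 34.9 CPM without it. Apoa1, an apolipoprotein, had 114 CPM in replicate 1 and 10.5 to 18.4 CPM in the others, and Cps1, the first enzyme of the urea cycle, 65.2 and 3.11 to 7.75 CPM. Hepatocyte genes were also detected in the other 6 libraries, where Alb had 93.7 to 136 CPM. The source of these reads was not tested. Other organs left little trace: pancreas and gut genes summed to at most 0.614 CPM, with Prss2, Cpa1, Pnlip and Reg1 at 0 in all libraries, and of the skin keratins Krt14 had no read, Krt5 and Krt1 were at most at 0.109 and 0.0386 CPM, and Krt10 had 2.40 ± 0.231 CPM.

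The spread between libraries was small for most genes. Over the 7095 genes with a mean of at least 10 CPM the median CV was 6.53% (quartiles 4.71% and 9.10%), whereas counting error alone would give a median of 2.44%. It was 5.33% for genes of at least 1000 CPM and 15.5% for those of 1 to 10 CPM. The CV was under 5% in 2059 genes and over 50% in 60. The common biological coefficient of variation, which edgeR estimates after taking out counting error, was 18.3% over all 7 libraries. It was 12.7% without replicate 1 and 11.1% without replicates 1 and 7. This is 1 value for all genes past a count filter (14093 with all 7 libraries), so it cannot be set directly beside the median CV. The number of genes whose highest library exceeded the lowest by more than 2 times was 200, but 139 without replicate 1, 133 without replicate 7 and 65 without both. Pearson correlations of log2(CPM + 1) between libraries, taken across genes that are not independent replicates, lay between 0.976 and 0.995.

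**Figure D4:**
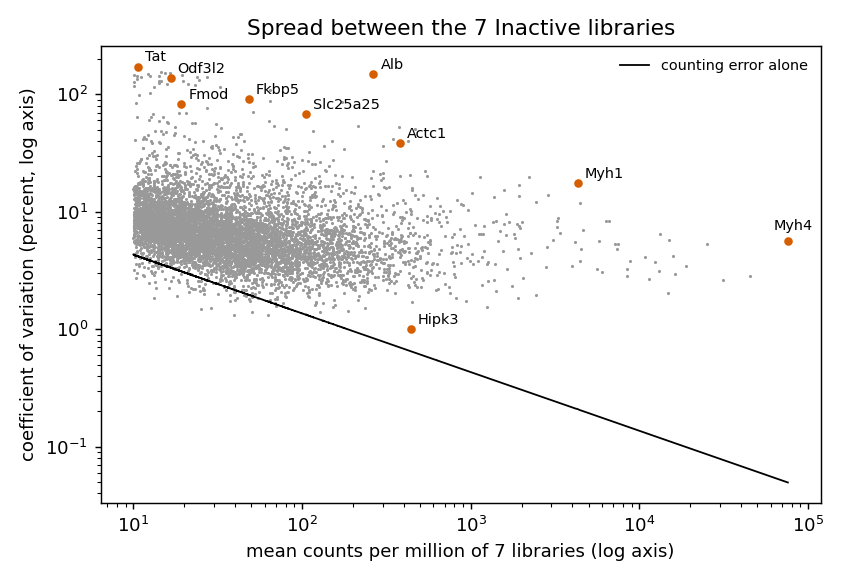
Coefficient of variation over the 7 libraries (percent, log axis) against mean CPM (log axis), with 1 point for each of 7095 genes and a line for counting error alone. Tat and Alb lie at 172% and 148% and Hipk3 at 0.998%, around a median of 6.53%.

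The steadiest transcripts had varied roles. Hipk3, a protein kinase, had 441, 440, 436, 438, 448, 435 and 444 CPM in replicates 1 to 7, a CV of 0.998%. Also steady were Chmp7 (1.31%), Lmtk2 (1.32%), Ube2n (1.40%), H3f3a (1.40%), Fh1 (1.44%), Tubgcp2 (1.49%), Nap1l4 (1.51%) and Rnf5 (1.52%), and further on Pmpca, Snapin, Cct7, Ube2l3 and Cdc37, the last with 1.66%. For Chmp7, Lmtk2, Ube2n, Tubgcp2, Rnf5 and Snapin the CV was below that which counting error gives for their counts. Genes often used as references spanned a wide range. Eef1a2, the muscle elongation factor, had a CV of 2.71%, Hprt, of purine salvage, 2.97% and Rplp0, a ribosomal protein, 3.09%, while B2m had 16.1%, Actb, cytoplasmic actin, 16.6% and Tfrc, the transferrin receptor, 25.7%.

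The 25 genes with the largest CV were nearly all liver genes. Replicate 1 was the highest library in 24 of them and replicate 7 the lowest in 20. Tat, tyrosine aminotransferase of liver, led with 51.8 CPM in replicate 1 and 1.27 to 5.30 CPM in the others (CV 172%). Cps1 (154%), Mat1a (153%), Hpd (148%), Alb (148%) and Serpina1b (147%) were also high, most of them enzymes of the liver or proteins of plasma. The exception among the 25 was Odf3l2, with 2.55, 3.03, 10.98, 14.2, 16.4, 2.22 and 66.7 CPM in replicates 1 to 7, highest in replicate 7 and low in replicates 1, 2 and 6.

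By Dixon's gap ratio, the distance of an extreme library from its neighbor over the whole range, a single library lay apart from the other 6 (a ratio above the 95% critical value for 7 samples) in 618 (8.71%) of the 7095 genes. Replicate 1 was that library in 172 genes on the high side and 28 on the low side, and replicate 7 in 105 and 114. Replicate 1 exceeded 1.5 times the median of the other 6 in 89 genes and replicate 7 in 80, against 13 to 19 genes for each of the other 5. On the low side, under the median of the other 6 divided by 1.5, were 35 genes in replicate 1 and 78 in replicate 7, against 6 to 40 in each of the other 5, so replicate 1 did not stand out there. In a principal component analysis the first component held 39.6% of the variance and set replicate 1 apart, and the second held 24.4% and placed replicate 7 opposite replicates 2 and 6.

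Of the 20 listed genes of fasting, glucocorticoid response and atrophy, 11 were highest in replicate 7 and 2 were lowest there. In 3 of the 20, Fkbp5, Foxo1 and Cdkn1a, replicate 7 lay apart by the gap ratio. Over all 7095 genes with a mean of at least 10 CPM, replicate 7 lay apart on the high side in 105. How many of all genes were highest in replicate 7 was not counted. The sum of the 20 genes was highest in replicate 3, at 3511 CPM, with 3412 CPM in replicate 7, and no library lay apart in it. Fkbp5, a co-chaperone that glucocorticoids induce, had 29.5, 24.6, 51.3, 38.98, 31.4, 17.2 and 144 CPM in replicates 1 to 7, so replicate 7 was 4.74 times the median of the others. Foxo1, a transcription factor of fasting and atrophy, had 74.3 CPM in replicate 7 and 14.3 to 24.8 CPM in the others. Stc2, a stanniocalcin, had 29.1 and 3.71 to 11.8 CPM, Slc7a8, an amino acid transporter, 52.9 and 12.3 to 17.9 CPM, and Cdkn1a, a cell cycle inhibitor, 23.3 and 11.9 to 15.7 CPM. In all 5 genes replicate 7 lay above the range of the other 6. Fkbp5, Foxo1, Stc2 and Slc7a8 were named because this library stood out in them, so their separation is a description.

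**Figure D5:**
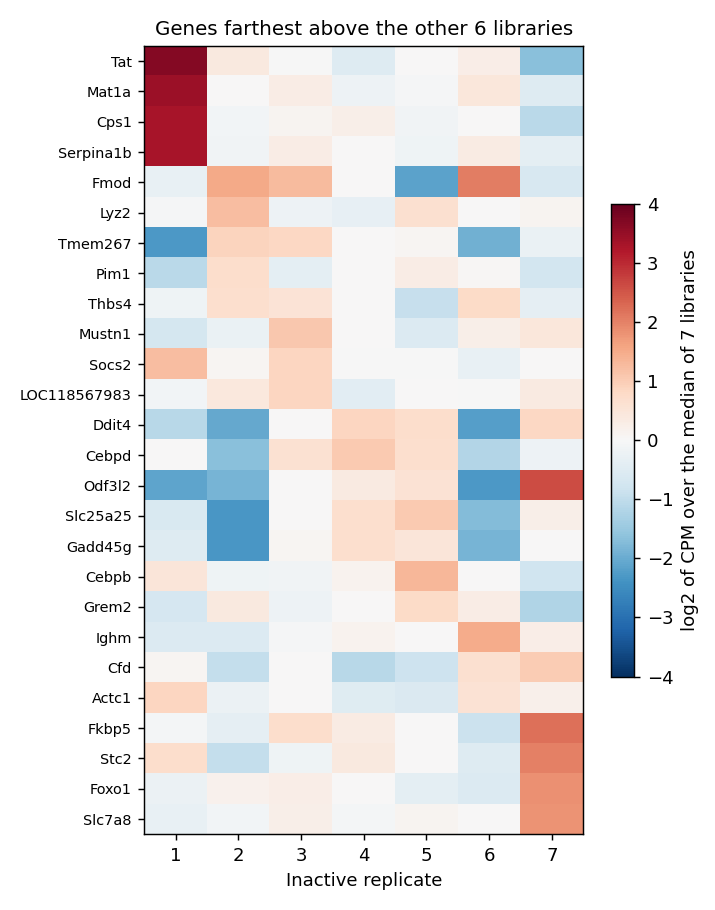
Log2 of CPM over the median of the 7 libraries for the genes that stood farthest above the other 6 libraries in each library, with 1 row per gene and 1 column per library. Liver genes are high in replicate 1, Fkbp5, Stc2, Foxo1 and Slc7a8 in replicate 7, and Ddit4, Slc25a25 and Gadd45g are low in replicates 2 and 6.

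Ddit4, Slc25a25, Gadd45g and Cebpd were named because they stood farthest above the others in replicate 4 or 5, so their pattern over the libraries is a description. Ddit4, an inhibitor of mTORC1, had 23.3, 12.1, 49.98, 90.2, 81.7, 10.8 and 89.0 CPM in replicates 1 to 7. Slc25a25, a mitochondrial carrier, had 70.1, 21.1, 106, 168, 218, 32.1 and 125 CPM, and Gadd45g, of the DNA damage response, 50.01, 14.3, 75.5, 113, 101, 19.9 and 71.7 CPM. In all 3 genes replicates 2 and 6 were the lowest and replicate 1 came next, below replicates 3, 4, 5 and 7. The transcription factor Cebpd was also lowest in replicates 2 and 6, at 4.55 and 6.44 CPM, and highest in replicate 4, at 30.0 CPM. Zfp36, which destabilises mRNA, had 6.47 and 5.71 CPM there and 12.9 to 24.1 CPM in the other 5. It is 1 of 17 listed immediate early genes, and not all of them followed this pattern. Fos and Egr1 were higher in replicate 2 than in every library but replicate 7. The list summed to 288 and 269 CPM in replicates 2 and 6 and to 291 to 396 CPM in the other 5.

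Fasting, glucocorticoid and atrophy genes summed to 2918 ± 415 CPM over 20 genes, all detected in all 7 libraries. Pdk4, which spares glucose by inhibiting pyruvate dehydrogenase, had 562, 534, 760.5, 451.5, 509, 371 and 568 CPM in replicates 1 to 7, with replicate 3 highest and replicate 6 lowest. Fbxo32 and Trim63, the ubiquitin ligases of atrophy, lay between 353 and 607 and between 245 and 478 CPM, while Txnip, which limits glucose uptake, had 378 ± 77.1 and Tsc22d3, a glucocorticoid target, 178 ± 61.1 CPM. In 6 of the 17 members with a mean of at least 10 CPM the highest library exceeded the lowest by more than 2 times, beside 2.82% of all genes. Foxo4 was steady, with a CV of 4.10%.

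Clock genes, which cycle over the day, summed to 1208 ± 71.6 CPM over 16 genes. Tef had 388 ± 23.1 CPM, Nr1d2 162 ± 7.38, Dbp 101 ± 22.4 and Per3 69.5 ± 5.99 CPM, whereas Arntl, the partner of Clock, had 8.78 ± 2.19 CPM. Per1, a clock gene that glucocorticoids also induce, was lowest in replicate 2 at 36.3 CPM and highest in replicate 7 at 125 CPM, and Nr1d1, a repressor of Arntl, was lowest in replicate 7 at 42.1 CPM, with 65.6 to 119.7 CPM in the others. Dbp and Arntl, which peak at opposite times of day, showed no relation past the test (Pearson r = -0.467, exact permutation p = 0.275, adjusted 0.413; Spearman rho = -0.286, p = 0.556, adjusted 0.834), with r = -0.524 without replicates 1 and 7.

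Immediate early genes, which stimuli such as exercise induce within minutes, were mostly low. Nr4a1 had 165 ± 28.5 CPM and Jun 76.0 ± 12.9 CPM, but Fos had 0.521, 2.56, 2.07, 1.95, 1.73, 1.31 and 6.01 CPM in replicates 1 to 7 and Egr1 2.20, 3.85, 2.88, 2.35, 2.01, 1.91 and 4.58 CPM. Replicate 7 was the highest for both. Fos and Egr1 varied together by Pearson correlation but not by rank after correction (Pearson r = 0.834, exact permutation p = 0.00754, adjusted 0.0452; Spearman rho = 0.893, p = 0.0123, adjusted 0.0714). Without replicates 1 and 7 r was 0.927. The call was lost without replicate 2 (adjusted exact permutation p = 0.233), replicate 3 (0.108), replicate 4 (0.0667), replicate 6 (0.0917) or replicate 7 (0.392).

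Secreted factors summed to 658 ± 35 CPM over 19 genes. Vegfa, an angiogenic factor, led with 214 ± 24.7 CPM, followed by Sparc (98.8 ± 16.1 CPM), Fndc5, the precursor of irisin (81 ± 8.58 CPM), Mstn, myostatin, which restrains muscle growth (71.2 ± 4.89 CPM), and Ostn, musclin (60.04 ± 8.96 CPM). Il6 was at most at 0.112 CPM, and Fgf21 had reads only in replicates 1 and 2, at 0.0372 and 0.0335 CPM. Interferon-stimulated genes summed to 50.2 ± 3.16 CPM over 14 genes. Among long noncoding RNAs Neat1, which scaffolds paraspeckles, had 1929 ± 325.3 CPM, H19, an imprinted RNA, 1128 ± 224 and Malat1, of nuclear speckles, 961.5 ± 99.8 CPM. Neat1 was lowest in replicate 1, at 1290 CPM with 1816 to 2317 CPM in the others, and H19 was highest in replicate 4, at 1579 CPM with 907 to 1224 CPM in the others.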

How the data were processed

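Gastrocnemius RNA of the 7 Inactive mice was sequenced after poly(A) selection, as 1 library per mouse per the study's methods. The authors used fastp for trimming, STAR for alignment (GRCm39) and featureCounts for counts per gene, and versions, annotation and strand setting are not given in the sources used here. The deposited tables hold raw counts, and the table named as normalised held the same 857913 values. Counts were scaled to CPM by the library total (49284630 to 59785132 reads), and to TPM by exon lengths from GENCODE M39 for 32646 genes that held 99.1% to 99.3% of the reads. Counting error was taken as Poisson and covers sampling of reads only. edgeR 4.0.16 gave the common biological coefficient of variation with an intercept only (TMM, filterByExpr), and DESeq2 1.42.0 an alternative, and the edgeR step and the correlation test were tested on simulated data. Correlations over 7 libraries used log2(CPM + 1) and two-sided exact permutation tests over all 5040 pairings. These were computed with numpy 2.4.6, with ranks from scipy 1.17.1 and Benjamini-Hochberg adjustment over 6 pairs, of which 5 are reported. The only other test was Dixon's gap ratio for a library far from the other 6. BLAST 2.17.0 searched near-identical copies (at least 98% identity). Promoters came from RefSeq. Named genes were the top 25 by CPM and per length, members of 34 lists, the 25 largest and 15 smallest CVs (mean of at least 10 CPM), the 5 genes farthest above the other libraries in each library, and any of these in which a library stood apart. Some items that these rules select are not reported here. The group and the lists were chosen with earlier results of these data known. Detection, length scale, normalisation, filters and each library were varied.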

Additional observations from a re-analysis of the deposited data

Results flagged for a closer look

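Among 207 values tested with Dixon's gap ratio (169 named genes, 34 list sums and the shares of 4 myosin genes), a single library lay apart from the other 6 in 42. Chance alone sets apart about 1 in 20 groups, and 8.71% of all genes with a mean of at least 10 CPM were set apart. Many of the named genes were chosen because a library stood out in them. For Krt1 and Krt5, with no read in 6 libraries, the ratio is at its highest whatever the count, and they held 2 and 6 reads in all.

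In replicate 1 the hepatocyte sum was 2526 CPM against 262 to 356 CPM in the others. With it stood Alb (1155 CPM), Apoa1 (114 CPM), Serpina1b (83.6 CPM), Mat1a (68.4 CPM), Cps1 (65.2 CPM), Hpd (53.0 CPM) and Tat (51.8 CPM), all genes of liver. The sum of 4 genes listed for brown fat was 5.58 CPM against 0.869 to 1.32 CPM in the others, mostly from Cpn2 (5.06 CPM in replicate 1), while Ucp1 had no read. Gjb1 (11.8 CPM against 1.17 to 1.97 CPM), Pgm1 (1964 CPM against 1504 to 1641 CPM) and the keratinocyte sum (6.21 CPM against 3.15 to 3.89 CPM) were also highest in replicate 1, and in that sum Krt14 had no read and Krt10 was 2.31 CPM. The part of liver RNA in these values was not tested.

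In replicate 7 the Schwann cell and myelin sum was 193 CPM against 62.6 to 102 CPM in the others. Its members Pmp22 (50.1 CPM), Mbp (35.5 CPM) and Prx (14.7 CPM) stood apart in the same library. So did Fkbp5 (144 CPM), Foxo1 (74.3 CPM), Odf3l2 (66.7 CPM), Slc7a8 (52.9 CPM), Stc2 (29.1 CPM), Cdkn1a (23.3 CPM), Cidec (11.4 CPM), Lep (5.58 CPM) and Fos (6.01 CPM). Krt5 had 0.109 CPM in replicate 7 and no read in the others.

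In the other 5 libraries fewer values lay apart. In replicate 2 the neutrophil sum was 0.753 CPM against 0.193 to 0.391 CPM in the others. In replicate 3 Col22a1 was 34.4 CPM against 24.4 to 27.5 CPM and COX3 was 34.4 CPM against 41.8 to 46.5 CPM. In replicate 4 the nuclear oxidative sum was 16645 CPM against 15262 to 15799.9 CPM, Hadhb was 351 CPM against 277 to 307.9 CPM, Myf6, a myogenic factor of fibers, was 82.4 CPM against 66.4 to 71.2 CPM and Mymk was 0.347 CPM against 0 to 0.134 CPM, and Krt1 had 0.0386 CPM with no read in the others. In replicate 5 the sum of fibro-adipogenic progenitor genes was 499 CPM against 685 to 818 CPM, Col3a1 was 24.9 CPM against 53.6 to 65.3 CPM, Pecam1 was 44.1 CPM against 53.4 to 58.5 CPM, Hbb-bs was 44.5 CPM against 20.5 to 30.2 CPM and Ostn was 78.9 CPM against 51.3 to 61.1 CPM. In replicate 6 the B and plasma cell sum was 29.3 CPM against 7.50 to 12.7 CPM, Ighm was 28.7 CPM against 7.04 to 12.4 CPM and ND4 was 6006 CPM against 5437 to 5605 CPM.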

How the results depend on the processing

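No paired analysis was possible because a single group was described. Leaving out 1 of 7 libraries cannot move a list sum by more than its SD. The mean hepatocyte sum of 621.5 CPM was 2.04 times that without replicate 1 and the brown fat sum of 1.77 CPM 1.56 times, and no other list sum moved by more than 1.5 times when a library was left out. The number of genes detected in all libraries was 6639 at 10 CPM in place of 11517 at 1 CPM. With no length correction the shares of myosin were 90.3% for Myh4, 5.15% for Myh1, 3.89% for Myh2 and 0.679% for Myh7. With the longest transcript Myh4 was 91.6%, Myh2 3.61% and Myh7 0.686%, and with the canonical transcript Myh2 was 3.46% and Myh7 0.670%. The median CV was 32.9% over every gene with a count, which adds genes of few reads. The median DESeq2 dispersion over genes gave 10.6%, which is a different statistic from the common value of edgeR. That common biological coefficient of variation was 11.1% without replicates 1 and 7, and 12.7 to 19.5% when each library was left out in turn. The number of genes differing by more than 2 times was 65 without both and 133 to 194 with each left out.

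With each library left out in turn, r was -0.420 to 0.109 for Myh7 and Myh2 (positive without replicate 3), -0.396 to 0.0410 for Myh4 and Myh1 (positive without replicate 7), 0.621 to 0.897 for Fos and Egr1, 0.721 to 0.934 for Col1a1 and Tnmd and -0.791 to -0.0109 for Dbp and Arntl. On CPM without a log, Col1a1 and Tnmd gave r = 0.860 (adjusted exact permutation p = 0.0452), and on TMM-scaled CPM r = 0.778 (adjusted exact permutation p = 0.0982). The cause of these changes was not tested. The canonical lengths and the settings without both replicates were chosen after seeing the data. With 7 libraries and 6 gene pairs, relations between genes are known only coarsely.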
